A study of Mus musculus with 6 samples.

Results

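The 32 genes described here mark or steer the endothelium, the cell layer that lines blood and lymph vessels. They were taken by name, as every non-control probe whose gene name was one of the 32. The 32 names were chosen with earlier results of these data known. They hold 44 of the 55681 probes and 32 of the 34844 gene names on the array. Of these genes, 27 belong to blood vessels and 5 are used as lymphatic markers (Flt4, Prox1, Lyve1, Pdpn and Vegfc), and both sets were kept apart.

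The study compared whole testes of Gipr-/- mice with those of Gipr+/+ mice, both C57BL/6 and 8 weeks old, with 3 mice of each genotype and 1 single-colour Agilent array for each. Gipr is the gene of the receptor for GIP, a hormone of the gut that makes the pancreas release more insulin after food. The labels give neither the part of Gipr that was removed nor whether the wild-type animals were littermates. Each p-value measures the spread between these animals.

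Endothelial cells are joined by Pecam1 and VE-cadherin (Cdh5). They grow and survive on vascular endothelial growth factors, read by Flt1 and Kdr, and on angiopoietins, read by Tek. Lymphatic endothelium arises from veins under the transcription factor Prox1 and grows on Vegfc through Flt4. In the testis, blood vessels run in the interstitium beside Leydig cells and carry testosterone away, and no vessel enters the seminiferous tubules.

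The probes behind the results below are 60 bases long, and the first 30 bases of each are printed 5′ to 3′ from the array description. Positions are those of the whole probe on mouse build mm9 as the files give them. Pecam1, Cdh5 and Flt4 are shown as the defining markers, and Emcn as the tested blood vessel gene with the largest difference. Plvap, Ets1, Vwf and Flt1 are each shown with a pair of probes at different sites. Of the 10 members with more than 1 tested probe, these had the lowest unadjusted p on 1 of their probes. The exon annotation of that build was not used here.
Pecam1, chr11:106540864-106540923, minus strand: ccccagaacatggatgtagaatacacagaa
Cdh5, chr8:106668159-106668218, plus strand: acttattataagactctagttctcacagac
Flt4, chr11:49465646-49465705, plus strand: agcttaccctatacttttacctgactttaa
Emcn, chr3:137086389-137086448, plus strand: cctcagtccgataaagagagtgtgaagctg
Plvap brighter probe, chr8:74030739-74030798, minus strand: attcaagaaaaggatcctggagtctcagcg
Plvap dimmer probe, chr8:74021877-74021936, minus strand: tttccagcctccctcttaaaggccactagg
Ets1 brighter probe, chr9:32561826-32561885, plus strand: acaaacctaagatgaattatgagaaactga
Ets1 dimmer probe, chr9:32564860-32564919, plus strand: gttggggtctatataaacctgttgaactct
Vwf brighter probe, chr6:125636551-125636610, plus strand: caagtgaggcctgtgcagctacagcggatt
Vwf dimmer probe, chr6:125542106-125542165, plus strand: tagttaaacagaacaacagtgaagggcgga
Flt1 brighter probe, chr5:148373791-148373850, minus strand: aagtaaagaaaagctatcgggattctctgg
Flt1 dimmer probe, chr5:148446872-148446931, minus strand: ggagggtactgccgttcctgtgtggtattt

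Levels are given as a percentage of the signal at the 75th percentile of the same array, called the reference signal here, and differences as knockout minus wild type in log2 units with their standard error. Values joined by "against" are knockout replicates 1 to 3 and then wild-type replicates 1 to 3. Between 70.6% and 76% of the non-control spots on an array were well above background, 0 spots were saturated, and the number of arrays limits the precision. All 6 arrays lay on 1 slide, with the knockout arrays in one row and the wild-type arrays in the other, so the row on the slide and the genotype cannot be told apart. The Gipr probe read 19.6%, 20.2% and 22.9% of the reference signal in Gipr-/- testes and 106%, 111% and 135% in Gipr+/+ testes. That is 5.58-fold lower, and it passed the test (limma adjusted p = 0.0031).

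Endothelial transcripts were measurable in every testis, and none of them differed between the genotypes beyond what the test across the array could call. Of the 44 probes, 39 were tested, having been well above background on each array of one genotype or of both. 0 of the 39 passed at a limma adjusted p under 0.05, and the lowest adjusted p was 0.558; across the array 18 of 38884 probes, 0.0463%, passed. At an unadjusted p under 0.05, 4 member probes (Flt4, Plvap, Emcn and Ets1) read lower in the knockout and 0 higher, where 3.27% of all tested probes read lower and 4.38% higher. Knockout and wild-type arrays did not overlap for 4 member probes (Flt4, Plvap, Ets1 and Vwf), all lower, against 5.54% lower and 7.84% higher of all tested probes. Flt4 entered the test only through its wild-type arrays and so had to differ, and without it each of these counts is 3. Angpt1, described below, read higher in the knockout without overlap, and the filter on dim probes kept it out of these counts.

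The intervals show what the arrays could resolve. Over the 39 probes, the 95% interval of a difference reached 0.147 to 1.09 to either side on the log2 scale, with a median of 0.244. The widest belonged to Flt4, whose probe lay at background in the knockout. In whole-tissue RNA, fewer endothelial cells and less RNA per endothelial cell cannot be told apart.

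**Figure D1:**
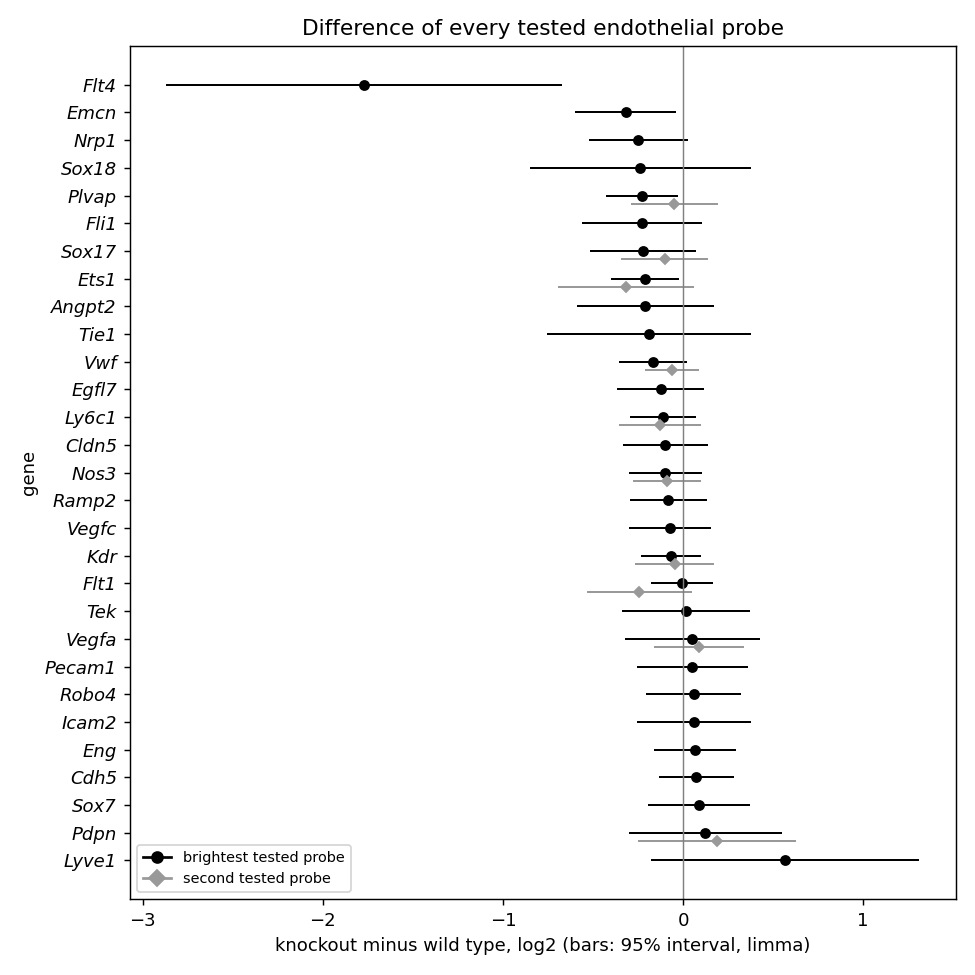
Knockout minus wild-type difference on the log2 scale (x axis) for each of the 39 tested endothelial probes, by gene (y axis); black circles are the brightest tested probe of a gene, grey diamonds the second, and bars the 95% interval from limma with 3 arrays per genotype. Flt4 lies far to the left at -1.77 with a wide bar, and most blood vessel genes lie slightly left of 0 with bars that cross it.

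The defining markers of blood endothelium were measured in every testis and overlapped between the genotypes. Pecam1, the adhesion receptor at endothelial junctions, read 10.5%, 9.73% and 12.3% of the reference signal in Gipr-/- testes and 9.02%, 11.2% and 11.1% in Gipr+/+ testes. Its difference was 0.05 ± 0.13 (SE, 3 arrays per genotype; 95% interval -0.25 to 0.35; limma adjusted p = 0.914), and it was -0.04 without knockout replicate 3 and -0.05 without wild-type replicate 1. Cdh5, the cadherin of those junctions, read 24.6%, 22.3% and 23.7% against 23.4%, 23.6% and 20.3%, a difference of 0.07 ± 0.08 (95% interval -0.13 to 0.28; limma adjusted p = 0.814). The 95% intervals allow at most 0.35 on the log2 scale for either gene in the upward direction and 0.25 in the downward direction.

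Among the other surface and junction proteins, Plvap and Emcn read lower in the knockout and were not called. Plvap forms the diaphragms that span endothelial pores. Its brighter probe read 124%, 135% and 114% in Gipr-/- testes and 140.5%, 144% and 151% in Gipr+/+ testes. All 3 knockout values lay under all 3 wild-type values, and the difference was -0.23 ± 0.08, or 1.17-fold lower (95% interval 1.02 to 1.34; limma adjusted p = 0.639). The dimmer Plvap probe read 24.1%, 23.7% and 23.5% against 27.9%, 21.9% and 24.4%. There the genotypes overlapped and the difference was -0.05 ± 0.10 (limma adjusted p = 0.898), and the mean of both probes gave -0.14.

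Emcn, a sialomucin of capillary and venous endothelium, had the largest difference of any blood vessel gene tested, from a low signal. It read 2.77%, 3.12% and 2.68% in Gipr-/- testes and 4.02%, 3.61% and 3.1% in Gipr+/+ testes. Knockout replicate 2 lay just above wild-type replicate 3, so the genotypes overlapped. The difference was -0.32 ± 0.11, or 1.25-fold lower (95% interval 1.03 to 1.51; limma adjusted p = 0.639), and it was -0.13 with the normexp background correction in place of the scanner software's. The normexp setting adds an offset of 50 signal units, which shrinks the log2 differences of dim probes.

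Ly6c1, a surface protein of endothelium and of some leukocytes, read 179%, 178% and 160.2% against 193%, 188% and 178%. Its difference was -0.11 ± 0.07 on that probe and -0.13 ± 0.09 on a dimmer one (limma adjusted p = 0.702 and 0.722). The near-identical Ly6c2 may bind the same probes, so this reading is uncertain. Cldn5, the claudin of endothelial tight junctions, read 139.9%, 133% and 112% against 139%, 139% and 132%, where knockout replicate 3 was the low array. Icam2, an adhesion molecule that leukocytes bind, read 47.1%, 39.1% and 33.1% against 37.9%, 38.5% and 36.8%, so the knockout arrays lay on both sides of the wild type. Their differences were -0.10 ± 0.10 and 0.06 ± 0.13 (limma adjusted p = 0.78 and 0.902).

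**Figure D2:**
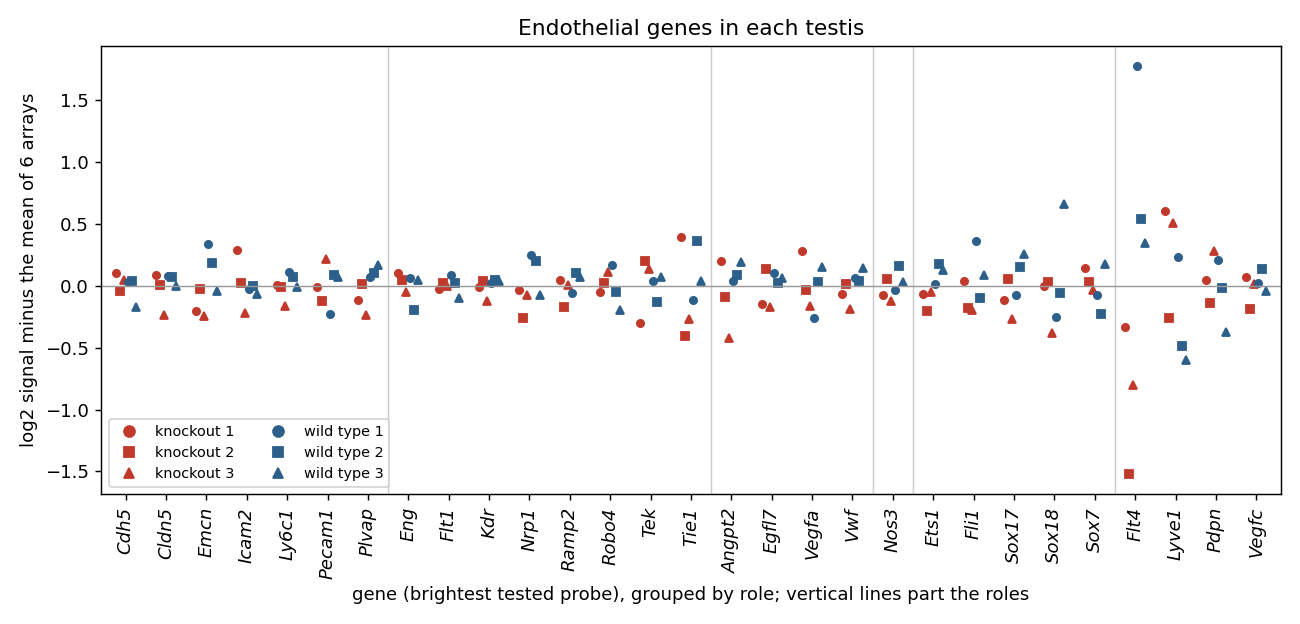
Log2 signal of each tested endothelial gene in each testis (y axis, minus the mean of the 6 arrays), for the brightest tested probe of 29 genes (x axis) grouped as surface and junction proteins, receptors, ligands, the enzyme Nos3, transcription factors and lymphatic genes; red marks are knockout, blue marks wild type, and the shape gives the replicate. Red and blue marks interleave for most genes, knockout replicate 3 is often the lowest mark, and Flt4 has the widest spread.

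The receptors of vascular growth factors overlapped between the genotypes. Kdr, the main VEGF receptor of blood endothelium, read 524%, 543% and 484% in Gipr-/- testes and 536%, 546% and 541% in Gipr+/+ testes. Its difference was -0.07 ± 0.07 (95% interval -0.23 to 0.10; limma adjusted p = 0.788), and the wild-type arrays lay within or just above the knockout range. A second Kdr probe, printed 10 times on every array, read far lower, at 29.1%, 24.2% and 26.2% against 28.9%, 26.1% and 27%. Levels are therefore compared only within a probe. That second probe gave a difference of -0.05 ± 0.09 (limma adjusted p = 0.89). The standard deviation among its 10 spots was 0.05 to 0.12 on the log2 scale, which puts the error of an array's mean at 0.01 to 0.04. Between arrays of a genotype the standard deviation was 0.13 in Gipr-/- testes and 0.08 in Gipr+/+ testes, with 1 array per animal, so labelling and hybridisation are part of that spread.

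Flt1, the VEGF receptor that also acts as a decoy, was read by 3 probes. The brightest read 36.2%, 37.3% and 36.7% in Gipr-/- testes and 39.1%, 37.4% and 34.4% in Gipr+/+ testes, with a difference of -0.0048 ± 0.07 (limma adjusted p = 0.987). The dimmer probe printed above, at a different site of the gene, read 5.32%, 6.24% and 4.73% against 6.99%, 6.02% and 6.18%, with -0.24 ± 0.12 (limma adjusted p = 0.657). On both probes the genotypes overlapped. The third Flt1 probe was not well above background on any array.

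Nrp1, the co-receptor that binds VEGF and semaphorins, read 5.22%, 4.47% and 5.07% in Gipr-/- testes and 6.35%, 6.15% and 5.07% in Gipr+/+ testes. Its difference was -0.25 ± 0.11 (95% interval -0.52 to 0.02; limma adjusted p = 0.652), and wild-type replicate 3 lay among the knockout arrays. Tek, the angiopoietin receptor, read 5.07%, 7.16% and 6.85% against 6.41%, 5.71% and 6.55%. Tie1, its partner receptor, read 8.98%, 5.16% and 5.67% against 6.33%, 8.77% and 7.03%. The knockout arrays held both the highest and the lowest value of each of these receptors, and the differences were 0.02 ± 0.14 and -0.19 ± 0.23 (limma adjusted p = 0.977 and 0.824).

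Eng, the TGF-beta co-receptor of endothelium, read 23.6%, 22.6% and 21.2% in Gipr-/- testes and 22.9%, 19.1% and 22.6% in Gipr+/+ testes. Robo4, a receptor that steadies vessel walls, read 50.8%, 53.4% and 56.8% against 58.8%, 50.6% and 45.7%. Ramp2, the partner of the adrenomedullin receptor, read 94.8%, 81.2% and 92% against 88.1%, 98.6% and 96.4%. All of these overlapped, with differences of 0.07 ± 0.09, 0.06 ± 0.11 and -0.08 ± 0.09 (limma adjusted p = 0.846, 0.884 and 0.798).

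Of the ligands and secreted proteins, Vwf stood apart between the genotypes on one probe. Vwf is the clotting glycoprotein that endothelium stores and releases. Its brighter probe read 254%, 269% and 233% in Gipr-/- testes and 277%, 274% and 294% in Gipr+/+ testes. The knockout values all lay under the wild-type ones, with a difference of -0.16 ± 0.08 (95% interval -0.35 to 0.02; limma adjusted p = 0.654). The dimmer Vwf probe read 18%, 19.4% and 18.8% against 19.2%, 19.5% and 20%, where the genotypes overlapped and the difference was -0.06 ± 0.06 (limma adjusted p = 0.783).

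Angpt2, the angiopoietin that loosens vessels, read 16.9%, 13.8% and 11% in Gipr-/- testes and 15.2%, 15.7% and 16.8% in Gipr+/+ testes, a difference of -0.21 ± 0.16 (limma adjusted p = 0.725). Knockout replicate 1 held the highest of the 6 values and knockout replicate 3 the lowest. Egfl7, a matrix protein secreted by endothelium, read 344%, 420.5% and 339.6% against 411%, 388% and 399%, a difference of -0.12 ± 0.10 (limma adjusted p = 0.732), and again the knockout arrays lay on both sides. Vegfa, the growth factor read by Kdr, is made mostly by cells outside the vessel wall. It read 24.2%, 19.5% and 17.8% against 16.7%, 20.4% and 22.2%, and its probes gave 0.05 ± 0.15 and 0.09 ± 0.10 (limma adjusted p = 0.932 and 0.813).

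Angpt1, the ligand that activates Tek, lay at the edge of detection and was not tested. It read 2.63%, 1.42% and 3.39% in Gipr-/- testes and 0.51%, 0.895% and 0.603% in Gipr+/+ testes. Of the knockout arrays, 2 of 3 had it well above background, and 0 of 3 wild-type arrays did, and every knockout value lay above every wild-type value. With each wild-type array set to the lowest signal that counted as well above background there, the knockout mean was 2.34-fold higher. That mean includes knockout replicate 2, where the probe was not well above background, so the ratio is not a strict minimum. A fit without the filter on dim probes gave a difference of 1.84 ± 0.38 (limma unadjusted p = 0.00357, adjusted p = 0.733).

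Nos3, the endothelial nitric oxide synthase, read 152%, 167% and 147% in Gipr-/- testes and 156%, 179% and 164% in Gipr+/+ testes. Its difference was -0.10 ± 0.08 (limma adjusted p = 0.749), and a second probe with 10 spots gave -0.09 ± 0.08 (limma adjusted p = 0.748). The genotypes overlapped on both probes. The standard deviation among the spots of that second probe was 0.04 to 0.06, and between arrays it was 0.08 in Gipr-/- testes and 0.09 in Gipr+/+ testes.

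Among the transcription factors, Ets1 read lower in every knockout array on its brighter probe, and it was not called. Ets1, Fli1 and Erg belong to the ETS family, which switches on endothelial genes. The brighter Ets1 probe read 8.2%, 7.45% and 8.29% in Gipr-/- testes and 8.67%, 9.7% and 9.34% in Gipr+/+ testes. Each knockout value was under each wild-type value, the difference was -0.21 ± 0.08, and the level was 1.16-fold lower (95% interval 1.02 to 1.31; limma adjusted p = 0.639). With the normexp background correction and its offset of 50 signal units the difference was -0.12. The dimmer Ets1 probe read 4.96%, 3.52% and 4.7% against 5.44%, 6.05% and 4.8%. It gave -0.31 ± 0.15 (limma adjusted p = 0.657), with knockout replicate 1 inside the wild-type range.

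Fli1 read 8.47%, 7.26% and 7.19% in Gipr-/- testes and 10.6%, 7.68% and 8.73% in Gipr+/+ testes, a difference of -0.23 ± 0.13 (limma adjusted p = 0.688). One knockout array, replicate 1, lay above wild-type replicate 2. Erg could not be tested, since one of its probes was well above background on 1 array of each genotype and the other on none.

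The SoxF factors set the identity of arteries and early lymphatic vessels. Sox17, the arterial member, read 116%, 131% and 104% in Gipr-/- testes and 119.7%, 139% and 151% in Gipr+/+ testes, with -0.22 ± 0.12 on that probe and -0.10 ± 0.10 on a dimmer one (limma adjusted p = 0.676 and 0.781). Knockout replicate 2 lay inside the wild-type range. Sox18 read 22.7%, 23.2% and 17.4% against 19.1%, 21.9% and 36%. Wild-type replicate 3 was far above the other arrays for Sox18, and the difference of -0.24 ± 0.25 lay within that spread (limma adjusted p = 0.799). Sox7 read 18.6%, 17.2% and 16.5% against 16%, 14.4% and 19%, a difference of 0.09 ± 0.11 (limma adjusted p = 0.829).

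Flt4, the receptor for Vegfc and the third defining marker, had the largest fitted difference of the tested members, at the lower limit of the array. It read 0.995%, 0.437% and 0.722% of the reference signal in Gipr-/- testes and 4.29%, 1.83% and 1.59% in Gipr+/+ testes. The probe was well above background on all 3 wild-type arrays and on 0 of 3 knockout arrays, and the genotypes did not overlap. Wild-type replicate 1 lay well above the other wild-type arrays.

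The lowest signal that counted as well above background was 0.813% to 1.37% of the reference signal, depending on the array. With each knockout array set to that floor, the wild-type mean of Flt4 was 1.89-fold higher, and wild-type replicate 1 raised that mean. A probe can lie above the floor without being well above background, so this ratio is not a strict minimum. Flt4 entered the test only through its wild-type arrays, so a difference was built into the filter. The fitted difference was -1.77 ± 0.45 (95% interval -2.86 to -0.68), and it was not called (limma adjusted p = 0.558). With the normexp correction it was -0.32 (limma adjusted p = 0.558). That setting adds an offset of 50 signal units, more than the Flt4 signal on any array, which shrinks the log2 difference.

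The other lymphatic markers overlapped between the genotypes. Lyve1, the hyaluronan receptor of lymphatic endothelium that tissue macrophages also carry, read 3.38%, 1.86% and 3.17% in Gipr-/- testes and 2.62%, 1.59% and 1.47% in Gipr+/+ testes. It was well above background on 3 knockout and 2 wild-type arrays, and its difference was 0.57 ± 0.30 in the opposite direction (95% interval -0.17 to 1.30; limma adjusted p = 0.675). Lyve1 entered the test only through its knockout arrays. Of the 32 genes it is the only one on chromosome 7, which also carries Gipr, and its probe starts at position 117994171. Whether the shared chromosome bears on this reading was not tested.

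Vegfc, the ligand of Flt4, read 15.7%, 13.1% and 15.1% in Gipr-/- testes and 15.1%, 16.4% and 14.5% in Gipr+/+ testes, a difference of -0.07 ± 0.09 (95% interval -0.29 to 0.15; limma adjusted p = 0.832). Pdpn, a mucin-like surface protein of lymphatic vessels and of other cells, read 97.9%, 86.2% and 116% against 109.7%, 93.5% and 73.5%. Its probes gave 0.12 ± 0.17 and 0.19 ± 0.18 (limma adjusted p = 0.846 and 0.775), and the genotypes overlapped. Prox1, the factor that sets lymphatic identity, read 0.278% to 0.412% and was not well above background on any array. With Prox1 undetected, Flt4 and Lyve1 near background and Pdpn shared with other cells, the label lymphatic rests on few measured transcripts in these testes.

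**Figure D3:**
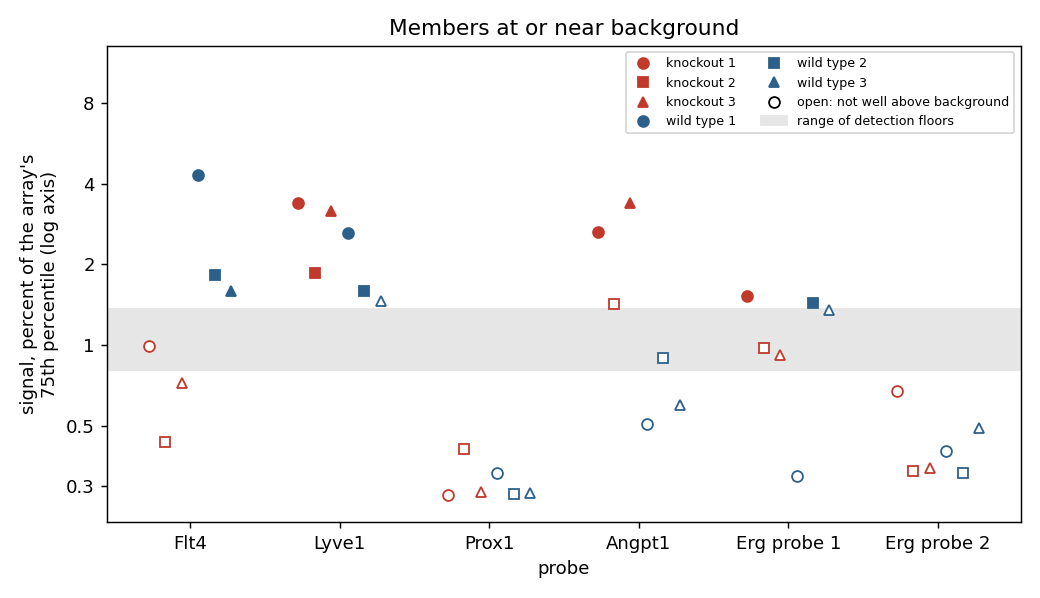
Signal in percent of the array's 75th percentile (y axis, log scale) for the 6 probes at or near background (x axis), with red for knockout and blue for wild type; open marks are not well above background, and the grey band is the range of the lowest well-above-background signal over the 6 arrays. Flt4 is filled in the wild type and open in the knockout, Angpt1 is filled on 2 knockout arrays alone, and Prox1 lies under the band on all 6 arrays.

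As a group, the blood vessel genes read slightly lower in the knockout, most of all in 1 of its 3 animals. All 25 that were tested were well above background on all 6 arrays. By the brightest probe of each, 17 read lower and 8 higher, 68% lower against 49.4% of the 26969 tested genes. Their median difference was -0.10 on the log2 scale, with a range of -0.32 to 0.09, beside a median of 0.0018 over all tested genes. 3 of the 25 had an unadjusted p under 0.05, all lower, and 3 did not overlap, all lower. Over all tested genes 3.49% were lower and 3.46% higher at that p, 5.98% did not overlap and were lower, 7.08% did not overlap and were higher, and 0.0556% passed the adjusted test. Without knockout replicate 3 the median was -0.06, and without wild-type replicate 2 it was -0.06 also.

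Knockout replicate 3 was the lowest of the 6 arrays for 13 of these 25 genes, 52%, against 26.8% of all tested genes. With every gene set against its own mean over the 6 arrays, the median of the blood vessel genes was -0.01, 0.01 and -0.16 in Gipr-/- testes and 0.04, 0.05 and 0.06 in Gipr+/+ testes. The knockout medians lay under the wild-type medians, with knockout replicates 1 and 2 close to them and replicate 3 well below. By role, 4 of 5 tested transcription factors read lower (median -0.22), 3 of 4 ligands (median -0.14), 4 of 7 surface and junction proteins (median -0.10) and 5 of 8 receptors (median -0.04). 10 of the 29 tested members had more than 1 tested probe, and both probes of all 10 pointed the same way, although probes of a gene may read the same RNA.

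Markers of other cells differed among the same arrays, and their part in the result was not tested. Of 7 Leydig cell markers, 6 read lower (median -0.25), and their array medians were -0.01, 0.05 and -0.46 in the knockout against 0.12, 0.29 and 0.12 in the wild type. Their summed signal was 47.5 to 53.7 times the reference signal in the knockout and 54.6 to 58.2 times in the wild type. Of 16 macrophage and leukocyte markers, 13 read lower (median -0.20), with the lowest array median, -0.28, again in knockout replicate 3. Their sums overlapped, at 39.9 to 47.6 and 40.6 to 44.7, and rest largely on Itgam, the brightest of them. Itgam, at 2858% to 3489% of the reference signal, was among the 3 that read higher (0.09 ± 0.09). The array medians of the 9 Sertoli cell markers overlapped, at 0.01, 0.01 and 0.16 in the knockout against 0.05, -0.09 and -0.08 in the wild type. Their sums of 312 to 325 and 294 to 300 rest largely on Rhox8 and Clu, the brightest of them.

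Of 5 red blood cell markers, 3 globin genes read higher and 2 read lower, Slc4a1 (-0.18 ± 0.18) and Alas2 (-0.04 ± 0.13), with a median of 0.53 and sums of 8.88 to 19 in the knockout and 7.85 to 11.4 in the wild type. Their array medians were high in knockout replicates 1 and 3 and low in knockout replicate 2 and wild-type replicate 1, which is not the order of the blood vessel genes. None of these marker genes was called. Hsd17b3, the enzyme that completes testosterone synthesis in Leydig cells, had -0.74 ± 0.26 (limma adjusted p = 0.639). Ptprc, the pan-leukocyte CD45, had -0.27 ± 0.14 (limma adjusted p = 0.66).

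**Figure D4:**
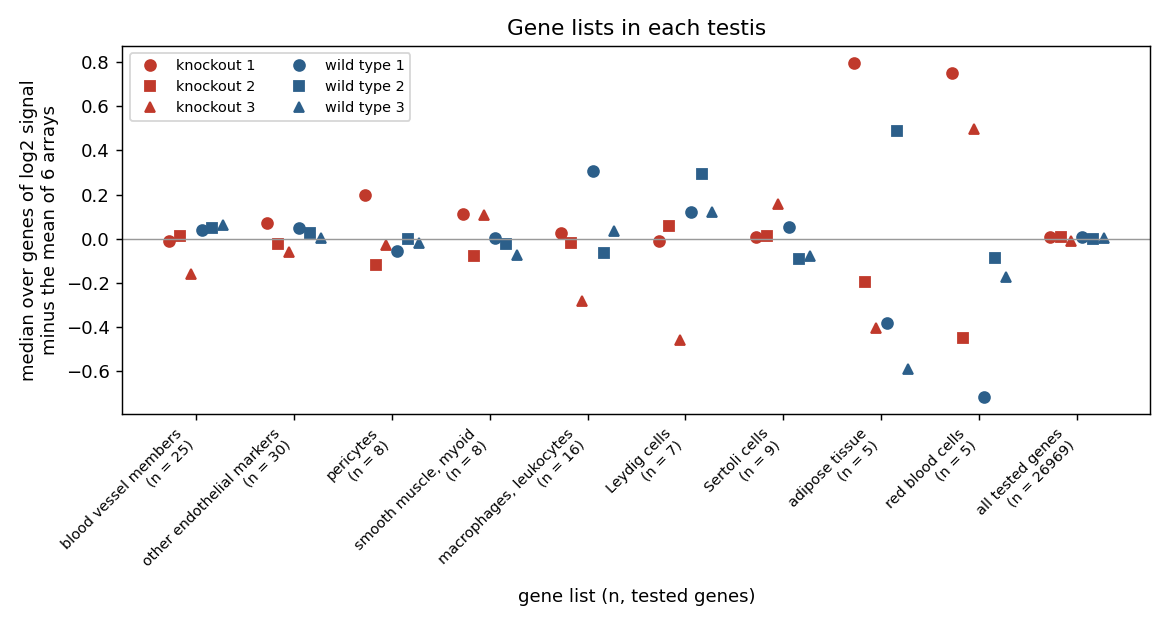
Median over the tested genes of each list (x axis) of log2 signal minus the gene's mean over the 6 arrays (y axis), with red for knockout, blue for wild type and the shape giving the replicate. Knockout replicate 3 is the lowest mark for the blood vessel, macrophage and Leydig cell lists. It is also the lowest for the other endothelial markers (-0.06) and for all tested genes (-0.01), where it lies nearer 0.

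Other genes of the same pathways gave no call in either direction. Of 24 tested genes of VEGF, angiopoietin, apelin and lymphatic growth signalling, 12 read lower and 12 higher, with a median of 0.0013. Apln, the ligand that endothelial tip cells secrete, read 82.9%, 76.3% and 53.8% in Gipr-/- testes and 122%, 85.7% and 142% in Gipr+/+ testes. The knockout arrays all lay below the wild-type arrays, and the difference was -0.71 ± 0.23 (limma adjusted p = 0.636). Vegfb, a ligand of Flt1, read 39.5%, 33.5% and 33.7% against 28.7%, 32.9% and 29.4%, higher in each knockout array, with 0.23 ± 0.10 (limma adjusted p = 0.649). Adamts3, the protease that helps to activate Vegfc, had -0.25 ± 0.10, and Plxnd1, a semaphorin receptor of endothelium, had -0.23 ± 0.10 (limma adjusted p = 0.644 and 0.652).

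Of 18 tested genes of vessel Notch, ephrin and BMP signalling, 7 read lower and 11 higher, with a median of 0.04. The smallest adjusted p was 0.651, for Smad1, which carries BMP signals to the nucleus (0.13 ± 0.06). Next came Acvrl1, the endothelial BMP receptor (-0.17 ± 0.08), Hes1, a Notch target (0.28 ± 0.12), and Jag1, a Notch ligand (-0.14 ± 0.07). None of these passed the test.

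A further 30 endothelial markers outside the 32 genes were split evenly, 15 lower and 15 higher, with a median of -0.0011. Their array medians were 0.07, -0.02 and -0.06 in the knockout and 0.05, 0.02 and 1e-04 in the wild type, on both sides of 0 in the knockout. Tal1, a transcription factor of blood and endothelial precursors, read 2.47%, 2.78% and 2.44% in Gipr-/- testes and 3.09%, 3.31% and 4.06% in Gipr+/+ testes, without overlap (-0.44 ± 0.12; limma adjusted p = 0.574). Lmo2, its partner, read 43.9%, 52.2% and 34.1% against 58.7%, 51.9% and 64.3%, with overlap (-0.44 ± 0.17; limma adjusted p = 0.639). Reln and Podxl read higher without overlap, by 0.30 ± 0.08 and 0.47 ± 0.17 (limma adjusted p = 0.595 and 0.639).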

How the data were processed

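Whole-testis RNA of 3 Gipr-/- and 3 Gipr+/+ mice was hybridised to 1-colour Agilent mouse arrays of 62976 spots. Per the file headers and the submitters' processing notes, the deposited values are spot intensity on a linear scale, the processed signal of Agilent Feature Extraction 10.7.3.1, background-corrected by that software. Each array took Cy3-labelled cRNA from 100 ng of RNA, per the labels' protocols. The authors' value list holds the same intensity times 1 factor per array (median 200), and served as an alternative.

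Control and outlier spots were left out, spots of a probe averaged, and log2 signal set to each array's 75th percentile. Probes well above background (at least 50% of their spots) on all 3 arrays of a genotype were tested with limma 3.58.1 (R 4.3.3), knockout minus wild type, two-sided, with Benjamini-Hochberg adjustment over all 38884 tested probes. 26969 gene names are represented by their brightest tested probe, so levels are compared within a probe. The fits used the signals as measured. Only for the fold ratios of Flt4 and Angpt1 was the genotype without a well-above-background array set to a floor. That floor is the lowest signal well above background on each of those arrays, or the probe's own if higher. The scripts were tested on simulated data. Of the 44 member probes, 41 accessions matched a RefSeq table and all 41 carried the same symbol.

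Values by array are given for Pecam1, Cdh5, Flt4 and the 12 other members of lowest unadjusted p, and 4 genes are named from each pathway list and 2 from a marker list. The other members, among them Angpt1, Erg, Kdr and Flt1, and further marker genes were described after their values were seen. Genes in the list of other markers and pathways, and the members themselves, were chosen with earlier results of these data known. Replicate numbers did not pair the samples. The alternatives changed the background correction, scaling, filter, gene level, model and left-out array.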

Additional observations from a re-analysis of the deposited data

How the results depend on the processing

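0 member probes and 0 genes of the pathway and other endothelial lists were called under any of the 17 alternatives. The number called over the whole array moved from 18 to 30 with normexp, 7 without the filter on dim probes, 35 with a trended and robust variance and 29 with array weights, and from 5 to 26 when 1 array was left out (26 without wild-type replicate 1, 5 without knockout replicate 1 or 2). With the replicate number as a block, 6 were called; deviations of same-numbered arrays correlated at 0.06, -0.02 and -0.0027, so the numbers gave no pairing. The median of the blood vessel members kept its sign in all 17 (-0.13 to -0.06, with -0.06 under array weights as well). The median of the 4 lymphatic members ranged from -0.07 to 0.11 and was negative under array weights (-0.0035), without knockout replicate 3 (-0.04) and without wild-type replicate 3 (-0.07). Among the 15 genes followed by name, Pecam1 alone changed sign, in 2 alternatives. At an unadjusted p under 0.05, 2 to 8 member probes passed, beside 4 in the main fit, and the count over the whole array moved as well. Without knockout replicate 2, 8 member probes passed, where 5440 of 39341 tested probes did, against 2977 of 38884 in the main fit. With array weights, 6 member probes passed, where 6936 of 38884 did. Signal over background limits Flt4, Lyve1, Angpt1, Erg and Prox1.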

Other observations

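Cells that wrap the vessels were read by 2 further lists. Of 8 tested pericyte markers, 3 read lower and 5 higher in the knockout (median 0.08), and Cspg4, the NG2 proteoglycan of pericytes, had 0.21 ± 0.11 and Ndufa4l2 0.10 ± 0.08. Of 8 markers of smooth muscle and peritubular myoid cells, the contractile cells around the tubules, 7 read higher (median 0.06). Myh11, the smooth muscle myosin, had 0.25 ± 0.10 (limma adjusted p = 0.643) and Des, the muscle intermediate filament, 0.15 ± 0.10. None of these genes was called.

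The remaining lists gave no call either. Among Sertoli cell markers, 6 of 9 read higher (median 0.10), with Rhox8 at 0.24 ± 0.07 and Fshr, the receptor for follicle-stimulating hormone, at 0.51 ± 0.19 (limma adjusted p = 0.613 for Rhox8). Lhcgr, the luteinising hormone receptor of Leydig cells, had -0.25 ± 0.13, and Cx3cr1, the fractalkine receptor of macrophages, -0.23 ± 0.12. Of the 5 red blood cell markers, the beta-globin genes Hbb-b2 and Hbb-b1 had 0.76 ± 0.38 and 0.82 ± 0.45, the highest of the list, in which 3 read higher and 2 lower. Of 5 tested adipose genes, 3 read higher (median 0.13), with Adipoq at -0.22 ± 0.14 and Plin1 at 0.24 ± 0.35. Of 3 tested epididymis genes, 2 read lower (median -0.26), Defb15 at -0.27 ± 0.08 and Adam7 at -0.26 ± 0.20. Of 8 germ cell genes, 5 read higher (median 0.01), with Odf1, a sperm tail protein, at -0.30 ± 0.11 and Sycp3, of the meiotic chromosome axis, at 0.12 ± 0.09.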
